A study of Rattus norvegicus with 78 samples.

Results

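Potassium channel genes, those whose symbol starts with Kcn, were followed in the hippocampus of young and aged rats that differed in maze training and in cognitive performance. A gene was kept when a probe set carrying its symbol alone was above the 40th percentile of its array in at least 9 of 78 arrays, and the brightest such probe set stood for the gene. This left 36 of the 73 Kcn genes with a probe set on the array, among 7489 genes measured in all by the same filter. Signal intensity was compared on the log2(signal + 1) scale, and differences below are on that scale unless said otherwise.

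The animals were male F344 rats, an inbred strain, and RNA came from the dorsal portion of the left hippocampus, hybridised to an Affymetrix RAE-230A array for each animal. The age was 4 to 6 months in young (Y) and 24 to 26 months in aged rats. Home-cage rats without training made up NT-Y (10 young rats) and NT-A (10 aged rats). The other rats learned the Morris water maze, a test of place learning. Their tissue was taken on day 5, when training ended, in 5T-Y, 5T-AU and 5T-AI with 10 rats in each group. In 21PT-Y (9 rats), 21PT-AU (10 rats) and 21PT-AI (9 rats) it was taken 21 days later. AU marks aged rats that performed in the maze without impairment and AI those that were impaired, a division the authors made on performance relative to young rats. Maze performance is not labelled for the untrained aged rats, so impairment can be compared only among trained rats. No group received a drug or carried an altered gene.

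Potassium channels let potassium leave a cell down its gradient, and so set the resting potential, end action potentials and limit firing. Voltage-gated families (Kv1 to Kv4, Kv7 and the EAG family) open on depolarization, and silent subunits such as Kcnv1 form no channel of their own but alter the Kv2 channels they join. Calcium-activated BK channels couple calcium entry to repolarization and are a source of the fast afterhyperpolarization of hippocampal pyramidal cells. Inward rectifiers hold the membrane near the potassium equilibrium potential and carry potassium into glia, and 2-pore channels carry leak current.

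The 36 genes fell into 4 Kv1 or beta subunit genes, 5 silent subunit genes, 3 of the Kv3 family, 6 of Kv4 and its KChIP partners, 1 of Kv7, 3 of the EAG family, 3 calcium- or sodium-activated genes, 8 inward rectifiers and 3 of the 2-pore family. Of these, 23 were above the filter in all 78 arrays. Farthest above it were Kcnab2 (beta subunit of Kv1 channels, mean signal 2640 over 78 arrays), Kcnip2 (a KChIP, the calcium-binding partners of Kv4, 1892), Kcnj6 (GIRK2, a G-protein-gated inward rectifier, 1338), Kcnd2 (the Kv4 subunit of the dendritic A-type current, 1269) and Kcnc2 (a Kv3 channel of fast-spiking cells, 1105). The dimmest were Kcnj14 (155), Kcnj15 (144), Kcnj9 (144), Kcng3 (134) and Kcns2 (122), whose means lay under the mean filter level of 161. Kcnj14 passed in 32 arrays, Kcnj15 in 21 and Kcnj9 in 20. Signals of different probe sets depend on their sequences and say nothing of which channel is more abundant. Kcng3 passed in 12 arrays and Kcns2 in 13, and just outside the threshold lay Kcnk3 with 8 arrays and Kcnab3, Kcna5 and Kcnk4 with 6 each. Of the 37 genes left out, 27 were above the filter in no array. Spread around the group means ran from an SD of log2 0.14 for Kcnc4 to 0.51 for Kcns2.

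One array stood apart. The array of 5T-AI replicate 4 correlated with the remaining arrays at 0.906 on average, where the median array reached 0.971, and had a summed signal of 8 microglia markers of 26612 against 4822 to 10778 elsewhere. Its 12 neuron markers summed to 31610 against 41645 to 50293 elsewhere. It held the lowest value of all 78 arrays for 15 of the 36 channel genes, and for 24 it lay below every other 5T-AI rat. These counts have no share over all probe sets beside them, so they do not set channel genes apart from other genes. The comparisons that use the 5T-AI group were also computed without this array, and many of the values that it moves are given beside them. In the main fit all groups share an estimate of the spread, so this array enters the SE of every comparison. Deposited signals had been scaled to a common trimmed mean, and array medians lay between 228 and 268. Precision depends on how many arrays there are and on the spread of each gene. Group means of the Gapdh 3′ over 5′ ratio, a measure of RNA integrity, lay between log2 0.21 (21PT-AU) and 0.33 (21PT-Y). Those of the beta-actin ratio ran more widely, from 0.60 (21PT-AU) to 0.99 (21PT-Y), with an SD of 0.23 and 0.38 in these groups. In 21PT-AI it was 0.76, so on day 21 it was lower in both aged groups. Its part in the age differences was not tested.

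Age was compared in the untrained rats, on day 5 and on day 21, and as the mean of these 3 differences, which share no array. In that mean, limma's adjusted p was under 0.05 for 3 of the 36 channel genes, against 8.78% of all 10371 probe sets tested, so the family's 8.33% lay near the background. There was 1 higher member, against 5.31% of all probe sets, and 2 were lower, against 3.47%. Kcnj16 rose with age, and Kcnmb4 and Kcnv1 fell. Kcnj16 is an inward rectifier subunit (Kir5.1) that joins Kir4.1 in astrocytes and kidney. Kcnmb4 is the neuronal beta4 subunit of BK channels, and Kcnv1 (Kv8.1) is a silent subunit. All other members missed the threshold, and the median difference of the 36 genes was 0.00, against -0.01 over all probe sets tested. The 95% interval of the mean age difference lay within 0.5 of zero for 36 genes and within 0.25 for 32.

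Kcnj16 signals in untrained young rats ran from 125 over a median of 167.8 to 196.2, and in untrained aged rats from 184.1 over 229.5 to 278. Of 10 aged rats 8 lay above the highest young rat and all 10 above the mean of the young, although the ranges overlapped. The difference was 0.45 ± 0.10 (SE, n = 10 and 10), a 1.37-fold level, with limma's adjusted p = 0.00627, and it was the 1 member of 36 called, against 0.781% of all probe sets. All 10 NT-Y arrays were processed on fluidics module 1 and no NT-A array was, so module and age cannot be told apart within this cohort. In the fit of all 8 groups with module as a term the difference was 0.59 (limma's adjusted p = 0.0318).

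On day 5 Kcnj16 ran from 142.9 over a median of 167.7 to 233.7 in young rats, from 160.9 over 197 to 257.9 in unimpaired and from 182.8 over 221.7 to 292.4 in impaired aged rats. The difference was 0.30 ± 0.09 (SE, n = 10 young and 20 aged, limma's adjusted p = 0.0368). Of 20 aged rats 19 lay above the young mean, but only 3 above the highest young rat. Kcnj16 was the 1 member called, against 2.5% of all probe sets. Without 5T-AI replicate 4, whose signal of 292.4 was the highest of its group, the difference was 0.28 and its adjusted p by limma 0.0654. The call also ended with the fluidics module as a term (0.29, limma's adjusted p = 0.559), under quantile normalization (0.0535) and without the filter (0.0521). Module follows the groups here too, with 9 of 10 5T-Y arrays on module 2, 7 of 10 5T-AU arrays on module 3 and 7 of 10 5T-AI arrays on module 1.

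On day 21 young rats ran from 142.1 over 179.4 to 188.9, unimpaired aged rats from 166.6 over 205 to 386 and impaired aged rats from 149.7 over 194.6 to 232.8. The difference of 0.25 ± 0.09 (SE, n = 9 and 19) did not pass (limma's adjusted p = 0.136), and no member was called against 2.84% of all probe sets, although 17 of 19 aged rats lay above the young mean and 12 above the highest young rat. Over the 3 cohorts the mean difference of Kcnj16 was 0.33 ± 0.05 (SE, limma's adjusted p = 2.3e-06), a 1.26-fold level. Its value was 0.28, 0.34 and 0.36 within the 3 chip lots.

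Kcnj16 lay close to the filter. It was above the array's 40th percentile in 22 of 29 young and 48 of 49 aged arrays. The gene's other probe set never passed the filter and differed in the same direction (0.56 ± 0.22, SE, unadjusted p = 0.0141 and adjusted p = 0.141 by limma without the filter). The Kir4.1 gene Kcnj10, its partner, was above the filter in only 4 arrays and is not among the genes tested in the main fit. Without the filter its mean age difference was -0.01 ± 0.12 (SE). By cohort it was 0.11 in untrained rats, -0.32 on day 5 and 0.17 on day 21.

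**Figure D1:**
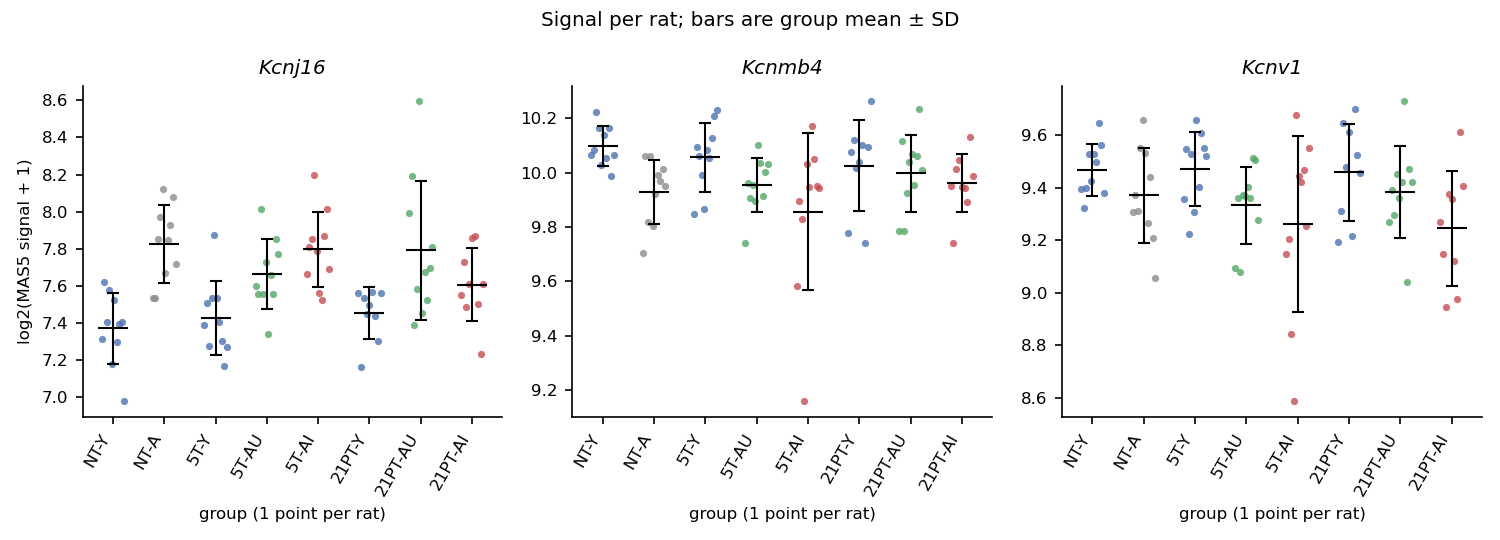
Signal of Kcnj16, Kcnmb4 and Kcnv1 in each of 78 rats, as log2(signal + 1) of the MAS5 signal on the vertical axis, in the 8 groups on the horizontal axis, with the group mean and SD as bars. For Kcnj16, 8 of 10 untrained aged rats lie above every untrained young rat; 5T-AI replicate 4 is the lowest point of the Kcnmb4 and Kcnv1 panels.

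Kcnmb4 signals in untrained young rats ran from 1013 over 1076 to 1195 and in untrained aged rats from 832.9 over 994.8 to 1067. Of 10 aged rats 6 lay below the lowest young rat, and all 10 lay below the young mean. On day 5 the signals ran from 919.9 over 1075 to 1199 in young, from 854.4 over 994.1 to 1099 in unimpaired aged and from 570.2 over 985.6 to 1152 in impaired aged rats. On day 21 they ran from 854.7 over 1078 to 1228 in young, from 880.3 over 1040 to 1202 in unimpaired and from 855.1 over 987.5 to 1120 in impaired aged rats, and no aged rat lay outside the young range. The differences were -0.17, -0.15 and -0.05 in the 3 cohorts, with limma's adjusted p = 0.377, 0.213 and 0.772, none of which passed. Their mean was -0.12 ± 0.04 (SE, limma's adjusted p = 0.0225), a 0.919-fold level, and the value within the 3 chip lots was -0.18, -0.13 and -0.07. Without 5T-AI replicate 4 the day 5 difference was -0.11 (limma's adjusted p = 0.361). The mean was then -0.11 with limma's adjusted p = 0.0124. With the fluidics module as a term the mean was -0.14 and the call ended (limma's adjusted p = 0.0533).

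Kcnv1 signals ran from 640 over 703.9 to 800.2 in untrained young and from 531.8 over 647.9 to 808 in untrained aged rats. On day 5 they ran from 596.2 over 736 to 807 in young, from 539.1 over 658.4 to 729.5 in unimpaired aged and from 383 over 647.8 to 818.4 in impaired aged rats. On day 21 they ran from 583.7 over 713.3 to 829.9 in young, from 525.5 over 677.1 to 848.7 in unimpaired and from 491.7 over 615.6 to 781.9 in impaired aged rats. In each cohort 5 or 6 aged rats lay below the lowest young rat and 1 above the highest, so the ranges overlapped widely. The differences were -0.10, -0.17 and -0.14, none past the threshold by cohort (limma's adjusted p = 0.846, 0.277 and 0.345), and their mean was -0.14 ± 0.05 (SE, limma's adjusted p = 0.0427), a 0.908-fold level, and the value within the 3 chip lots was -0.15, -0.07 and -0.18. Without 5T-AI replicate 4 the day 5 difference was -0.14 (limma's adjusted p = 0.453), and the mean was -0.13 with limma's adjusted p = 0.0423. The call ended under quantile normalization (-0.13, limma's adjusted p = 0.0674) and without the filter (limma's adjusted p = 0.0571).

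The RefSeq promoter windows (GRCr8, 250 bases before to 50 after the start) of Kcnj16 and Kcnmb4 are shown because these genes were called with age in opposite directions. Capitals mark matches to 5 motifs searched on both strands. The AP-1 site was searched as TGANTCA. The GC box was searched as GGGCGG and therefore also matches its reverse complement. The TATA box was given the letters TATAAA, the E-box was given CACGTG, and the cyclic AMP response element was given TGACGTCA. No matches overlapped. Sequences are written in the direction of transcription, from chr10:96517074-96517373 on the plus strand for Kcnj16 and from chr7:54005052-54005351 on the minus strand for Kcnmb4.
Kcnj16: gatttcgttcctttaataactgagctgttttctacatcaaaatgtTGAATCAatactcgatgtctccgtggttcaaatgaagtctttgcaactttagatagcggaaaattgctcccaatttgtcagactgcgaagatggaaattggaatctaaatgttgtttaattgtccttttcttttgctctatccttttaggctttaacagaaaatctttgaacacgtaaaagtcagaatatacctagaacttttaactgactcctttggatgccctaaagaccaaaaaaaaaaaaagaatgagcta
Kcnmb4: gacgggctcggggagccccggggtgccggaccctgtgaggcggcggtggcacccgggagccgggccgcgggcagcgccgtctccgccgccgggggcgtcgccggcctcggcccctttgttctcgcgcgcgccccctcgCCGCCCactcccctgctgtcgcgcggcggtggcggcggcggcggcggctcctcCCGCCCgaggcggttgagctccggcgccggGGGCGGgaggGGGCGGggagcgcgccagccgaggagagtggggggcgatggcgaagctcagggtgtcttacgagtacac
The Kcnj16 window was 34% G or C with 6 CpG and held 1 match, to TGANTCA at position -205, a motif in 7.33% of 27457 windows. The Kcnmb4 window was 80.7% G or C with 48 CpG and held 4 GC boxes, a motif in 34.9% of all windows. Of the 24 members with a window in the table, 13 held a GC box and none TATAAA, which 14.3% of all windows hold, and their median was 64% G or C against 52.3% over all windows. These matches describe letters in the window and were not tested against the signals.

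By class, no other member passed. In the calcium- and sodium-activated class Kcnma1, the BK pore subunit, was below zero in all 3 cohorts (mean -0.12 ± 0.05, SE, limma's adjusted p = 0.101), and Kcnt1, a sodium-activated channel, was at 0.04. Among Kv4 genes and their partners Kcnd2 (-0.10 ± 0.04, SE, limma's adjusted p = 0.105) and Kcnip2 (-0.09, limma's adjusted p = 0.129) were below zero in all 3 cohorts (Kcnd2 on day 5 at -0.01, and at 0.02 without 5T-AI replicate 4), while Kcnip3 (0.06) and Kcnip4 (0.10) were above it. The Kv4 subunits Kcnd1 and Kcnd3 were at -0.03 and 0.06. A second probe set of Kcnd2, above the filter in 78 arrays, was at -0.01 ± 0.05 (SE), so the gene's probe sets disagree in size, and a second one of Kcnip2 was at 0.10 ± 0.11 (SE), of opposite sign.

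Among inward rectifiers Kcnj6 was at -0.09, while its other tested probe sets were at 0.12 and 0.09, of opposite sign. Kcnj14 was at -0.10 and Kcnj15 at 0.06, and Kcnj3, Kcnj4, Kcnj9 and Kcnj11 lay between -0.03 and 0.01. The other silent subunits were Kcns3 at -0.09, Kcng3 at 0.16 and Kcns2 and Kcng2 near zero. In the Kv1 class the pore subunits Kcna4 and Kcna1 were at -0.09 and 0.05, and the beta subunits Kcnab2 and Kcnab1 at -0.05 and 0.04. A second, dimmer probe set of Kcnab2 was at 0.49 ± 0.35 (SE). The Kv3 genes Kcnc1, Kcnc2 and Kcnc4 lay between -0.06 and 0.04, and the EAG genes Kcnh1, Kcnh2 and Kcnh3 between 0.00 and 0.03. Kcnq3, a subunit of the M-current, was at 0.08, and its second probe set at -0.05. Of the 2-pore genes Kcnk1 (TWIK1) was at 0.13, Kcnk2 at -0.07 and Kcnk6 at 0.03. At an unadjusted p under 0.05 limma gave 9 members, 7 of them lower, against 21.5% of all probe sets. It gave 4 in untrained rats (8.73% of all probe sets), 3 on day 5 (12.2%) and 4 on day 21 (16.7%). Without 5T-AI replicate 4 it gave 2 on day 5.

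**Figure D2:**
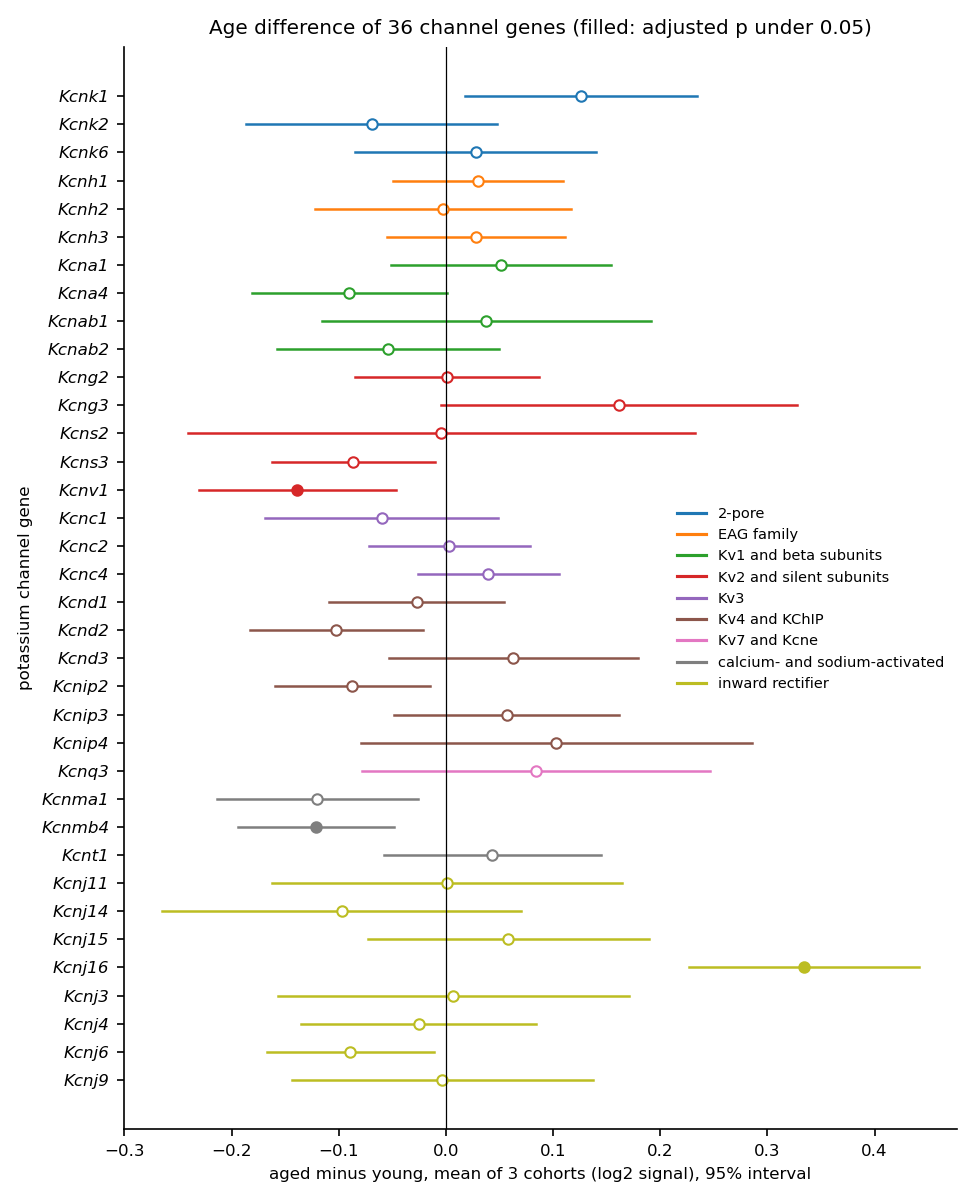
Aged minus young difference, mean of 3 cohorts, with its 95% interval on the horizontal axis in log2 signal, for the 36 channel genes on the vertical axis, coloured by class. Filled points mark an adjusted p under 0.05: Kcnj16 at 0.33, Kcnmb4 at -0.12 and Kcnv1 at -0.14.

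Across the 3 cohorts, 17 of 36 members (47.2%) kept the same sign, against 41.7% of all probe sets. The 6 above zero in each were Kcng3, Kcnip3, Kcnip4, Kcnj15, Kcnj16 and Kcnk1, and the 11 below were Kcna4, Kcnab2, Kcnc1, Kcnd2, Kcnip2, Kcnj6, Kcnk2, Kcnma1, Kcnmb4, Kcns3 and Kcnv1. Leaving out 5T-AI replicate 4 removed Kcnab2 and Kcnd2 from that list, since their day 5 differences of -0.02 and -0.01 became 0.01 and 0.02. With that array included, untrained and day 5 differences shared their sign for 24 members, untrained and day 21 for 26, and day 5 and day 21 for 20. On day 21 the smallest p-values after that of Kcnj16 belonged to Kcns3, Kcnd2 and Kcnq3. Kcns3, a silent subunit, was at -0.15 ± 0.06 (SE, limma's adjusted p = 0.199) and Kcnd2 at -0.16 ± 0.07 (SE, limma's adjusted p = 0.208). Kcnq3 was at 0.28 ± 0.14 (SE, limma's adjusted p = 0.281) and had been at -0.05 on day 5. Some members with larger p-values, such as Kcnab1 at 0.24 ± 0.13 (SE), lay farther from zero than Kcns3 and Kcnd2. In the untrained rats Kcnk6, a 2-pore channel, was at 0.22 ± 0.11 (SE, limma's adjusted p = 0.507), and its sign turned to negative in both trained cohorts.

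Cell type markers moved with age too. Of 12 neuron markers 5 fell (Camk2a, Gad1, Nefm, Rbfox3 and Tubb3, between -0.10 and -0.21) and none rose, and of 8 astrocyte markers 3 rose (Gfap, Glul and S100b, between 0.09 and 0.26). Of 8 microglia markers 6 rose, and their summed signal ran from 7731 to 10048 in NT-A and from 5132 to 7392 in NT-Y. The neuron sum ran from 44035 to 48464 in NT-A and from 45200 to 48580 in NT-Y, and the astrocyte sum from 38260 to 43906 against 35873 to 40351. No tested marker was at 0 in any array, and both blood markers rose (Hbb and Alas2, 0.91 and 0.76). In these bulk samples fewer cells of a type and less RNA per cell cannot be told apart, and the part of these markers in the Kcnj16, Kcnmb4 and Kcnv1 differences was not tested.

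Of 35 genes whose products anchor, regulate or work beside potassium channels, 23 were tested, and in the mean of cohorts 4 rose and 2 fell (26.1%, against 8.78% of all probe sets). The list was chosen with earlier results of these data known and counts the brightest probe set of each gene. Its share is therefore not evidence about such genes, and it was not tested as a set. Sgk1, a kinase that regulates channel and transporter traffic, was at 0.70 ± 0.09 (SE, limma's adjusted p = 4.54e-09), and Slc12a2, the sodium-potassium-chloride cotransporter, at 0.22. Cntn2, a cell adhesion molecule of juxtaparanodes where Kv1 channels gather, was at 0.23, and Atp1b3, a subunit of the sodium-potassium pump, at 0.12. Cntnap1, of the paranodal junction, fell by 0.19 and Dlg3, a scaffold, by 0.11. Aqp4, the astrocyte water channel, and Slc12a5, the neuronal potassium-chloride cotransporter, did not pass.

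Impaired and unimpaired aged rats were compared on day 5, on day 21 and as the mean of both days. No member passed in any of them, nor did any of the 10371 probe sets tested (0% called). By limma at an unadjusted p under 0.05 there were 2 members on day 5 (4.58% of all probe sets), 5 on day 21 (4.6%) and 4 in the mean (5.86%). There were 1 on day 5 and 4 in the mean without 5T-AI replicate 4. On day 5, 27 of 36 members were below zero in impaired rats, against 52.8% of all probe sets, with a median of -0.08 against -0.01. Without 5T-AI replicate 4, 18 of 36 were below zero, their median was -0.01, the median over all probe sets was 0.00, and 9 members had changed sign. On day 21, which does not include that array, 24 of 36 were below zero, against 52.4% of all probe sets, with a median of -0.03 against -0.01.

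Kcnj4, the inward rectifier Kir2.3, ran from 293.5 over 402.7 to 502.5 in impaired rats on day 5 and from 340.4 over 492 to 565.5 in unimpaired rats, whose ranges overlapped. The difference was -0.28 ± 0.10 (SE, n = 10 and 10, limma's adjusted p = 0.985), lower than the unimpaired mean in 9 of 10 rats, and it was -0.27 without 5T-AI replicate 4. On day 21 impaired rats ran from 395.9 to 596.6 and unimpaired rats from 350 to 610.5, and Kcnj4 differed by -0.03. Kcnq3 was at -0.34 ± 0.15 (SE) on day 5 and at -0.03 on day 21, and Kcnk1 at -0.16 and -0.14. The day 5 values were -0.28 and -0.14 without 5T-AI replicate 4. On day 21 the smallest p-values belonged to Kcnd3, a Kv4 subunit (-0.28 ± 0.11, SE), Kcnj6 (0.17 ± 0.08, SE) and Kcnh1, an EAG channel (-0.16 ± 0.08, SE), with limma's adjusted p from 0.985 to 0.997. Their differences on day 5 were -0.07, -0.04 and 0.00, and without 5T-AI replicate 4 they were -0.02, 0.05 and 0.07, so that Kcnj6 had the sign it had on day 21. In the mean of both days Kcnc4, a Kv3 channel, was at -0.10 ± 0.04 (SE), Kcnd3 at -0.17 and Kcnj4 at -0.16, each with limma's adjusted p = 0.829, and all 4 members with an unadjusted p under 0.05 were below zero. Which members had the smallest p-values rested on 5T-AI replicate 4, but the signs of these 4 did not. Without that array Kcnc4, Kcnd3, Kcnj4 and Kcnk1 stayed below zero, at -0.08, -0.15, -0.15 and -0.14. Members below zero then numbered 25 of 36, against 27 with the array, when 52.6% of all probe sets were below zero. Without it the smallest p-values were those of Kcnip2 (0.11), Kcnj6 (0.11) and Kcnd2 (0.12), all above zero, with limma's unadjusted p = 0.00974, 0.0112 and 0.0248 and adjusted p = 0.826, 0.837 and 0.841. Of the 4 members then under an unadjusted 0.05 by limma, 1 was below zero, Kcnj4 at -0.15. The 3 genes called with age differed between impaired and unimpaired rats by 0.13, -0.10 and -0.07 on day 5 and by -0.18, -0.04 and -0.14 on day 21 for Kcnj16, Kcnmb4 and Kcnv1. Leaving out 5T-AI replicate 4 made the day 5 values 0.09, -0.02 and 0.00, the last on the other side of zero. For 33 of 36 members on day 5 and 29 on day 21 the 95% interval lay within 0.5 of zero.

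**Figure D3:**
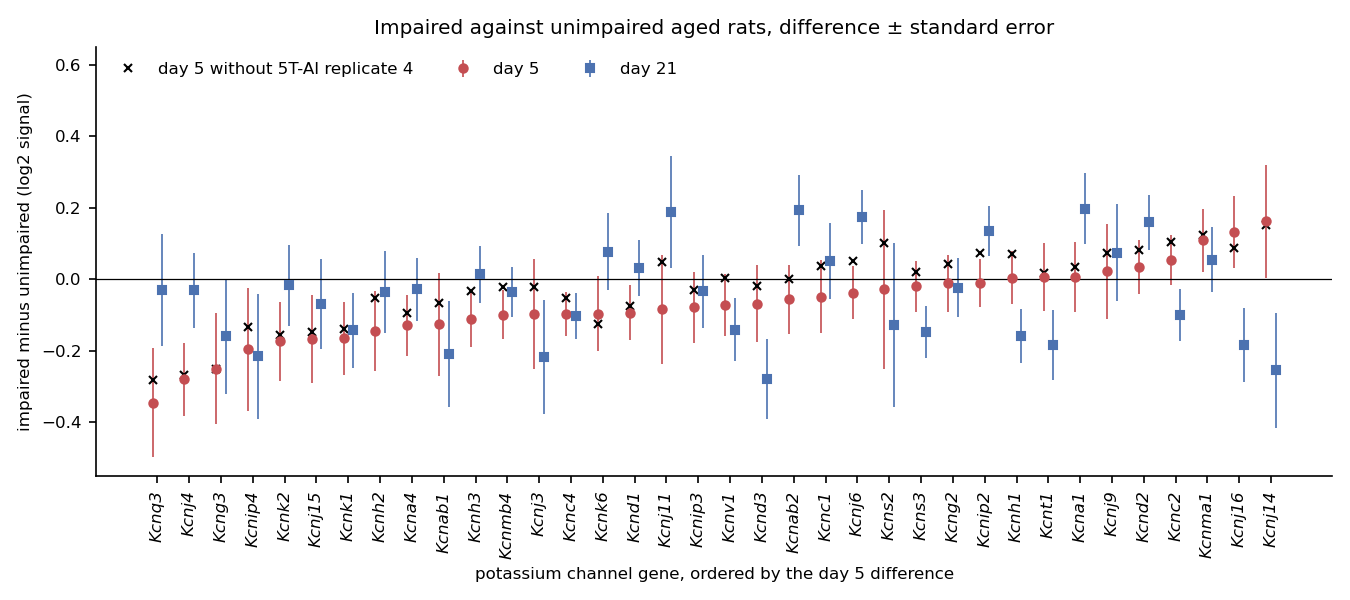
Impaired minus unimpaired difference in log2 signal on the vertical axis, with its standard error, for 36 channel genes on the horizontal axis, on day 5 (circles) and day 21 (squares). Crosses give day 5 without 5T-AI replicate 4, which moves the median of the 36 from -0.08 to -0.01.

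Trained rats on day 5 were compared with untrained rats of the same age. No member passed, against 0.0675% of all probe sets in young, 0.0289% in unimpaired aged and 0.0868% in impaired aged rats. In young rats Kcnc4 ran from 730.1 over 834.9 to 900.2 untrained and from 599.4 over 761.7 to 787.6 on day 5. All 10 trained rats lay below the untrained mean, and the difference was -0.18 ± 0.06 (SE, unadjusted p = 0.00572 and adjusted p = 1.00 by limma). Kcnd1, a Kv4 subunit, ran from 266.3 over 325.1 to 384.1 and from 223.2 over 292.6 to 322.8, a difference of -0.19 ± 0.08 (SE) with 10 of 10 trained rats below the untrained mean, and Kcnd2 was at -0.18 ± 0.08 (SE), neither of which passed. At an unadjusted p under 0.05 there were 4 members by limma in young rats, all lower, against 3.16% of all probe sets, none in unimpaired aged rats (5.57%) and 3 in impaired aged rats (10.4%).

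In unimpaired aged rats the smallest p-values were those of Kcnh1 (-0.15 ± 0.07, SE), Kcnc2 (-0.13 ± 0.07, SE) and Kcnj6 (0.12 ± 0.07, SE), with limma's adjusted p from 0.891 to 0.925. In impaired aged rats Kcnj4 was at -0.32 ± 0.10 (SE, n = 10 and 10, limma's adjusted p = 0.251) against NT-A, in which it ran from 384.6 over 523.1 to 616.1, and 9 of 10 rats lay below the untrained mean. Kcnc4 (-0.13) and Kcnk6 (-0.22) followed, with limma's adjusted p = 0.446 and 0.452. Of 36 members 28 were below zero with a median of -0.08, against 52.3% and -0.01 over all probe sets. Without 5T-AI replicate 4 there were 22 members below zero with a median of -0.04. Kcnj4 was then at -0.31 and Kcnk6 at -0.25, while Kcnc4 moved to -0.09 (unadjusted p = 0.148 and adjusted p = 0.69 by limma). Kcnj6 at 0.18 (unadjusted p = 0.00531 and adjusted p = 0.30 by limma) then had the second smallest p-value, and Kcnip2 at 0.12 was under an unadjusted 0.05, so that 2 of 4 such members were below zero where 3 of 3 had been. This comparison and that of the unimpaired rats share the untrained aged group.

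**Figure D4:**
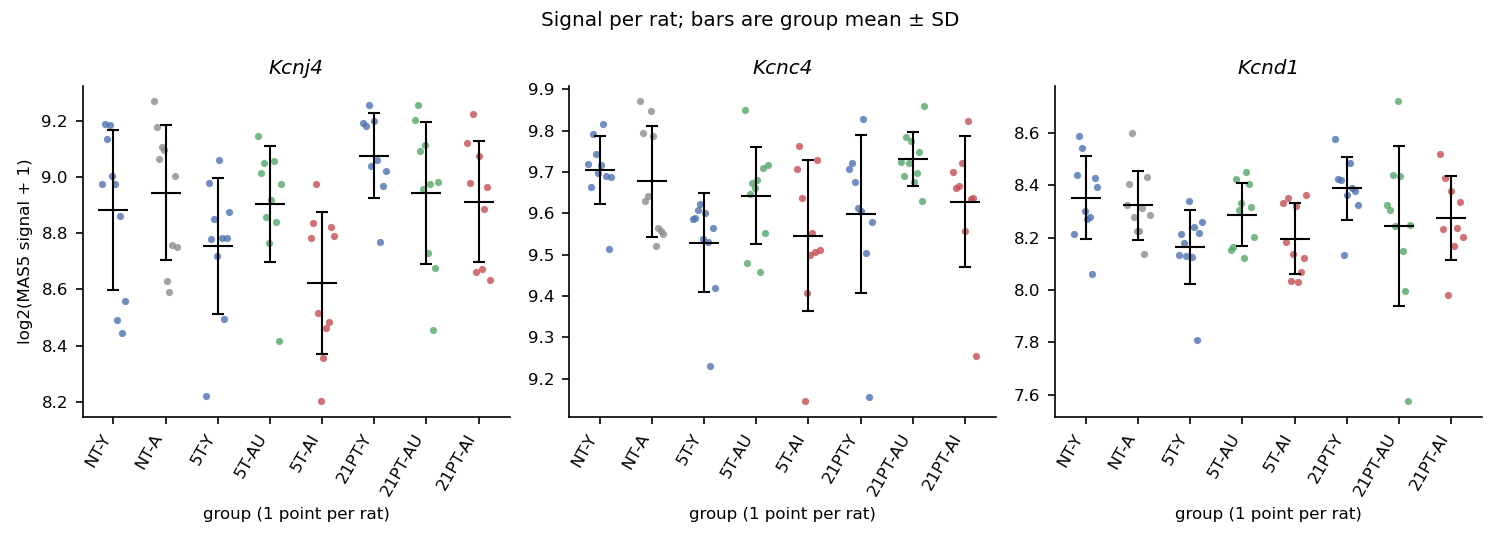
Signal of Kcnj4, Kcnc4 and Kcnd1 in each of 78 rats, as log2(signal + 1) on the vertical axis, in the 8 groups on the horizontal axis, with the group mean and SD as bars. No difference between these groups passed: Kcnj4 has its lowest group median, 402.7 on the signal scale, in 5T-AI.

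Rats 21 days after training were compared with untrained rats and with rats on day 5. Against untrained rats no probe set passed in young or in aged rats (0% called), and at an unadjusted p under 0.05 by limma there were no members in young (2.44% of all probe sets) and 1 in aged rats (5.54% of all probe sets). The members nearest to the threshold in young rats were Kcnab1, a beta subunit of Kv1 channels (-0.28 ± 0.15, SE), Kcnj4 (0.19 ± 0.11, SE) and Kcnc4 (-0.11 ± 0.06, SE), with limma's adjusted p = 1.00. In aged rats they were Kcnh1 (-0.13 ± 0.07, SE), Kcnk6 (-0.14 ± 0.09, SE) and Kcnj16 (-0.13 ± 0.09, SE), with limma's adjusted p from 0.88 to 0.903.

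Day 21 against day 5 gave no member either, against 0.0964% of all probe sets in young and 0.0675% in aged rats. In young rats Kcnj4 ran from 297.8 over 439.3 to 533.2 on day 5 and from 434.7 over 533.2 to 609.8 on day 21, where all 9 rats lay above the day 5 mean. The difference was 0.32 ± 0.11 (SE, n = 10 and 9, unadjusted p = 0.00324 and adjusted p = 0.485 by limma). Kcnd1 was at 0.22 ± 0.08 (SE, limma's adjusted p = 0.521) and Kcnab1 at -0.39 ± 0.15 (SE, limma's adjusted p = 0.543). In aged rats Kcnt1 was at 0.16 ± 0.07, Kcnj6 at -0.12 ± 0.05 and Kcnj4 at 0.16 ± 0.07 (SE, n = 20 and 19), each with limma's adjusted p = 0.812. Of 36 members 27 were above and 9 below zero in aged rats, where 49.8% of all probe sets were below zero. The median was 0.03 against 0.00 over all probe sets, and without 5T-AI replicate 4 it was 0.01 with 14 members below zero. Kcnj6 was then at -0.16 ± 0.04 (SE, unadjusted p = 0.000286 and adjusted p = 0.162 by limma). At an unadjusted p under 0.05 limma gave 4 members in young (7.37% of all probe sets) and 3 in aged rats (6.03%).

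**Figure D5:**
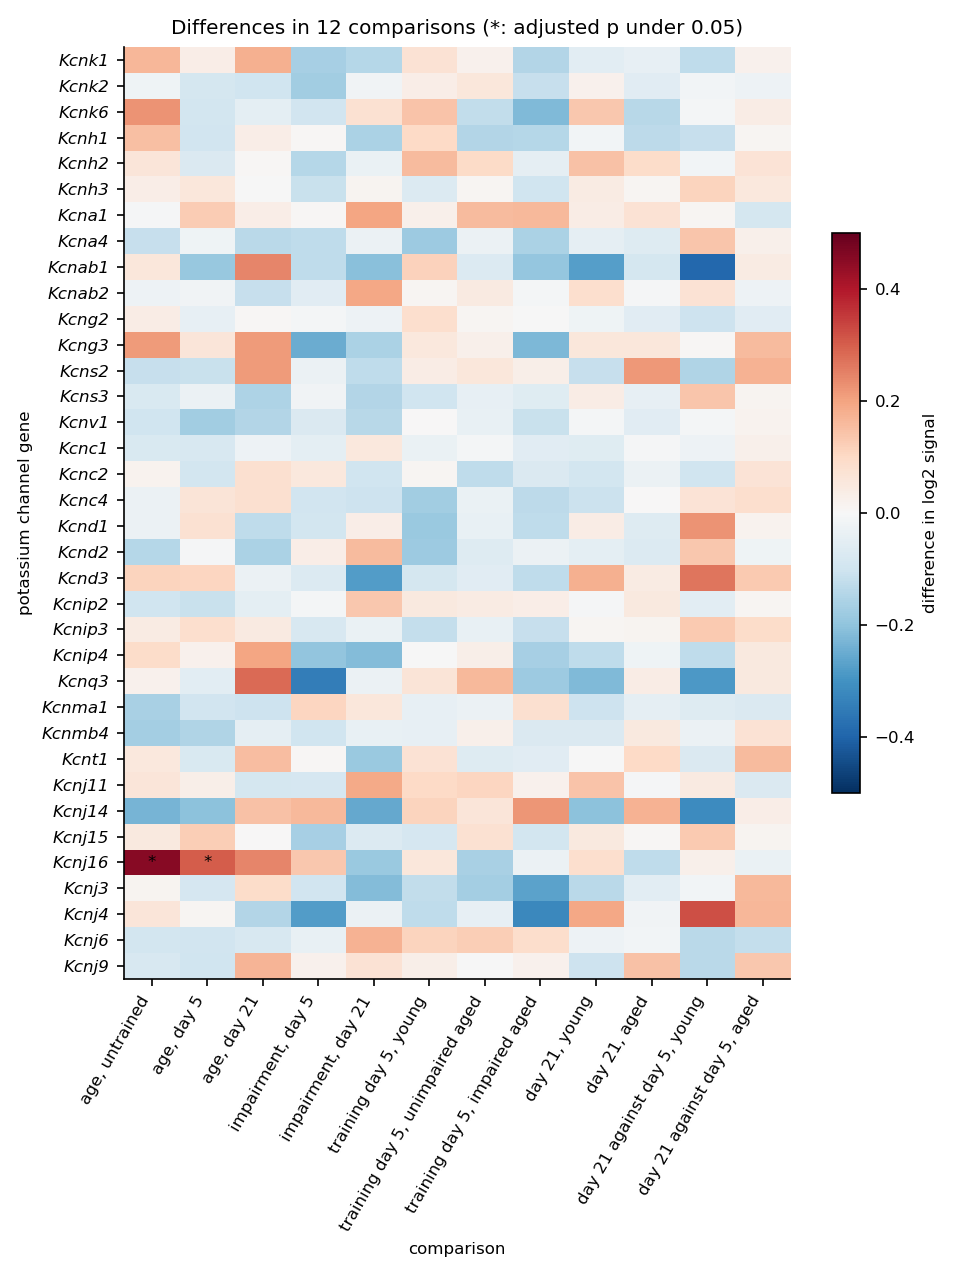
Difference in log2 signal (colour, from -0.5 to 0.5) of 36 channel genes on the vertical axis in 12 comparisons on the horizontal axis, some of which share groups. Stars mark an adjusted p under 0.05, which in these 12 comparisons holds for the age difference of Kcnj16 in the untrained cohort (0.45) and the day 5 cohort (0.30).

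Whether age differences depended on training was tested with interaction terms. No member and no probe set passed (0% called), on day 5, on day 21 or for impairment by day. At an unadjusted p under 0.05 limma gave 2 members on day 5 (3.72% of all probe sets), 0 on day 21 (3.88%) and 2 for impairment by day (3.35%). For day 5 against untrained rats the smallest p-values belonged to Kcnh1 (-0.24 ± 0.10, SE), Kcnk6 (-0.32 ± 0.14, SE) and Kcnd2 (0.13 ± 0.10, SE), with limma's adjusted p = 1.00. These were -0.21, -0.33 and 0.16 without 5T-AI replicate 4, and the median of the 36 members went from -0.01 to 0.02. For day 21 they belonged to Kcnk6 (-0.27 ± 0.14, SE), Kcnj14, an inward rectifier (0.38 ± 0.21, SE), and Kcnj16 (-0.21 ± 0.14, SE). The Kcnj16 age difference of 0.45 in untrained and 0.25 on day 21 was therefore not shown to differ between them. For impairment by day they belonged to Kcnj16 (-0.32 ± 0.14, SE), Kcnj6 (0.21 ± 0.11, SE) and Kcnj14 (-0.42 ± 0.23, SE), with limma's adjusted p = 0.999. Without that array these were -0.27, 0.12 and -0.41, the median went from 0.06 to 0.00, and the members with an unadjusted p under 0.05 by limma were Kcnh1 (-0.23) and Kcnc2 (-0.20), in place of Kcnj16 and Kcnj6.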

How the data were processed

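Signal intensity was measured in 78 rats with 1 array each. The authors computed the deposited signal intensity by the MAS5 algorithm of GCOS 1.1 (per the submitters' processing notes) and scaled each array; the scaling was checked, with 2% trimmed means equal across arrays. Gene names came from the platform annotation, and 57 control probe sets were left out. Probe sets above the array's 40th percentile in at least 9 arrays were kept, 10371 of 15923. Log2(signal + 1) was computed from the deposited signals and modelled by group (8 means, 17 contrasts) in limma 3.58.1 under R 4.3.3 with lmFit and a trended eBayes, with Benjamini-Hochberg adjustment over all tested probe sets at 0.05. Python 3.11.15, pandas 2.3.3 and matplotlib 3.10.9 made tables and figures.

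Values were named for members past the threshold in any comparison, the 3 smallest p-values of each comparison, and the 5 brightest and 5 dimmest members. The members, gene lists and tests were chosen with earlier results of these data known. Tested on simulated data for the mean age difference on 10371 probe sets, the fit recovered 96 of 100 probe sets shifted by log2 0.5 and 90 of 100 shifted by 0.25. For impairment on day 5 these were 88 and 51 of 100. False calls numbered 11 for the mean age difference and 13 for impairment on day 5. Alternatives were no filter, a pseudocount of 32, quantile normalization, replicate number, scan day, fluidics module and chip lot as terms or blocks, leaving out 5T-AI replicate 4, only the arrays compared, and an average over each gene's probe sets. Same-numbered arrays did not pair throughout, but correlated over 0.1 in 162 of 267 pairs, against 613 of 2394 other pairs. Arrays of the same scan day did so in 188 of 260 pairs, against 587 of 2401 from different days. The main fit held no term for either. With scan day as a block the same members were called with age. Over all probe sets the age count then went from 259 to 379 on day 5 and from 295 to 487 on day 21. The maze table was not used.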

Additional observations from a re-analysis of the deposited data

Results flagged for a closer look

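In 13 of 144 sets of values, 18 named genes in 8 groups, the highest or lowest rat lay far from the nearest other rat of its group by Dixon's criterion, which chance meets in about 1 of 20 sets. Kcnc4 was low in 4 of them, with a signal of 730.1 in NT-Y replicate 9, 599.4 in 5T-Y replicate 8, 569.2 in 21PT-Y replicate 8 and 610.1 in 21PT-AI replicate 9. Kcnd1 was low in the same 5T-Y replicate 8 (223.2). The array of 5T-AI replicate 4 was low for Kcnd3 (180.5), Kcnh1 (300.6) and Kcnj6 (775.4). Single low values were Kcnj14 in 5T-Y replicate 2 (101.9), Kcnj4 in 5T-AU replicate 9 (340.4), Kcnq3 in 21PT-Y replicate 6 (102.1) and Kcnt1 in NT-Y replicate 7 (130). Kcnj16 in 5T-Y replicate 5 was high (233.7). No cause was tested.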

How the results depend on the processing

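Recomputed for 17 comparisons under 10 alternatives, the count of called members stayed within 1.5 times the reported one in 166 cases and left it in 4. Most of the 166 come from comparisons with no called member in the main fit or in any alternative, so they say little of stability. The mean age count fell from 3 to 2 under quantile normalization, without the filter and with the module term, which still lies within 1.5 times. The day 5 age count went from 1 to 0 under quantile normalization, without the filter, with the fluidics module as a term and without 5T-AI replicate 4, where the adjusted p of Kcnj16 by limma was 0.0535, 0.0521, 0.559 and 0.0654. Kcnmb4 in the mean age difference missed with the module term (0.0533), and Kcnv1 under quantile normalization (0.0674) and without the filter (0.0571). The module nearly follows the groups, untrained and trained. Of the tested differences named by rule that did not pass, 3 changed sign. The log2 difference of Kcnc4 on day 21 in young rats was 0.0133 under the module term. Averaged over probe sets, Kcnd2 in the age by training term on day 5 was at -0.00937 and Kcnj6 in unimpaired aged rats on day 5 at -0.0426. The other differences named by rule kept direction and side of the threshold, while among all members leaving out 5T-AI replicate 4 turned the sign of 9 on day 5 for impairment, Kcnj6 and Kcnv1 among them, and of 2 to 6 in 7 other comparisons. With replicate number as a block the age counts were 1, 1, 0 and 3, unchanged, as was each other count. Over all probe sets, the untrained age count of 81 became 27 with the module term and 170 without 5T-AI replicate 4, the day 5 count of 259 became 54 with the module term, and the day 21 count of 295 became 116 with it and 501 with the replicate block. The array of 5T-AI replicate 4 is in no untrained group, so it reaches the untrained count only through the shared estimate of the spread. The causes of the other changes were not tested. Signals near the filter, as of Kcnj16 in young rats, limit precision.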
